A study of Mus musculus with 22 samples.

Results

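The 10 small nucleolar RNAs (snoRNAs) Snora28, Snora31, Snora5c, Snora74a, Snora81, Snord104, Snord12, Snord2, Snord32a and Snord87 were the genes of the count table whose symbol begins with Snora or Snord and a number, 10 of 6054 genes in all. They were chosen by symbol from a table that holds only abundant genes, so their count level chose them too. No value in it was below 129 counts, and the lowest snoRNA value was 139 counts, for Snora28 in 1 ribosome profiling library. A snoRNA was therefore seen here only if it was well counted in every library, in RNA and in ribosome profiling alike. Of the 10, 5 were box H/ACA (Snora) and 5 were box C/D (Snord) snoRNAs.

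The tissue was quadriceps, a mixed muscle of the thigh, taken from inbred C57Bl/6 mice. All mice had been fasted overnight, and each group received vehicle or leucine by oral gavage 30 minutes before the muscle was taken. RNA sequencing covered 5 vehicle and 6 leucine libraries of total RNA depleted of ribosomal RNA, and ribosome profiling covered 5 vehicle and 6 leucine libraries of nuclease-protected fragments, called RPF below. The study asked how leucine, a branched-chain amino acid that activates mTORC1 signalling, alters translation of individual mRNAs, and the snoRNAs were measured along the way. Nothing in the labels ties each library to its own animal, and a p-value here measures only the spread among libraries, which may in part be technical.

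A snoRNA is a short noncoding RNA that works in the nucleolus as the guide of a protein complex. Box C/D snoRNAs pair with ribosomal RNA and direct ribose methylation by fibrillarin, while box H/ACA snoRNAs direct the conversion of uridine to pseudouridine by dyskerin. Most vertebrate snoRNAs are cut out of introns of host genes, many of which encode ribosomal proteins or translation factors, so a snoRNA and its host mRNA come from 1 primary transcript. No snoRNA has a coding sequence, so RPF reads that come from one are not footprints of a translating ribosome. Whether reads of overlapping host exons were counted with them is not known here. What protected the snoRNA fragments was not tested.

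The RNA libraries held 15016267 to 30944085 counts each and the RPF libraries 21697096 to 48996109. Member counts ran from 139 to 71139 per library. The column names carry 2 prefixes that the labels do not explain, and these divide each assay into set A (3 vehicle and 3 leucine libraries) and set B (2 vehicle and 3 leucine libraries). Libraries are named here by treatment, set and column order within the set. All 9 markers of skeletal muscle fibres fixed for this work were in the table, with summed levels of 297509 to 456080 CPM (counts-per-million of the scaled library size) in RNA. Markers of endothelium, fibroblasts, pericytes and macrophages were measured too, so the tissue was taken whole, and fewer cells of a type cannot be told apart from less RNA per cell. For macrophages 2 of 4 markers and for adipocytes 1 of 3 were in the table, and none for Schwann, satellite or erythroid cells.

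The sequences of 7 members are shown as a description, and no result here was tested against sequence. Those of Snora5c, Snora74a and Snord104 are not shown. Snora28, Snora31, Snord12, Snord2 and Snord32a differed between the library sets in RPF, and Snora81 and Snord87 did not pass that test. They are the GENCODE M21 transcripts of mouse build GRCm38, whereas the authors worked on mm9, and the annotated length often differs from theirs (127 against 121 bases for Snora28). In box C/D members capitals mark TGATGA, the core of box C, in the first 20 bases and CTGA, box D, in the last 20 bases. In box H/ACA members they mark ACA in the last 8 bases. Only the RNA strand was searched, and the 2 box C/D windows do not overlap in these transcripts. Each sequence is given 5′ to 3′ with T for U.
Snora28: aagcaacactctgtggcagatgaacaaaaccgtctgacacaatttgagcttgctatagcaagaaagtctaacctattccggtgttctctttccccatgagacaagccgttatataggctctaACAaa
Snora31: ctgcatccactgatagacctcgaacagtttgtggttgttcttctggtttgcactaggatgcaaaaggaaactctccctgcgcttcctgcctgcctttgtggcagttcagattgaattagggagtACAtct
Snora81: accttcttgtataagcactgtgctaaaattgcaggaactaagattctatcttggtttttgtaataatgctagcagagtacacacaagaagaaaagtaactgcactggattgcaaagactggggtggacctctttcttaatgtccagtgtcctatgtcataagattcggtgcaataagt
Snord12: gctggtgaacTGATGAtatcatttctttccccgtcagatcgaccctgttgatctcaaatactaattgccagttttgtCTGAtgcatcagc
Snord2: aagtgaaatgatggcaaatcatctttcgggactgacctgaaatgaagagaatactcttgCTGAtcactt
Snord32a: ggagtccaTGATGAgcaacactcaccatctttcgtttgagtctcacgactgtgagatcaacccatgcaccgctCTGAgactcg
Snord87: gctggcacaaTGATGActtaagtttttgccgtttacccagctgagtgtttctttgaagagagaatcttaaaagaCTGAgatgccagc

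Among the 5 box C/D members, CTGA was found in 5 and TGATGA in 4, the exception being Snord2. Among 454 annotated snoRNA transcripts of 60 to 100 bases, 67.4% held TGATGA and 83.9% held CTGA in these windows, against 0.334% and 10.6% of 1799 other transcripts of that length. ACA stood in the last 8 bases of 4 of the 5 box H/ACA members, the exception being Snora81. The share was 63.8% of 1019 snoRNA transcripts of 100 to 200 bases and 9.72% of 3777 others. A window without the letters says nothing more than that these letters are not in it.

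By that annotation, 8 of the 10 lie on the strand of, and inside, a gene taken here as their host. Snora28 (chr12:111540941-111541067) overlaps an annotated exon of Eif5, which encodes a translation initiation factor. Snora81 (chr16:23110756-23110933) and Snord2 (chr16:23108953-23109021) both overlap annotated exons of Eif4a2, an RNA helicase of the initiation complex, and so share a primary transcript. Snora31 (chr14:75847905-75848034) lies in an intron of Tpt1, which encodes translationally controlled tumour protein. Snord32a (chr7:45127382-45127464) lies in an intron of Rpl13a, a ribosomal protein gene whose intronic snoRNAs are known from work on lipotoxic stress. Snord12 (chr2:167065276-167065365) overlaps an exon of the noncoding gene Zfas1, and Snord87 (chr1:9942463-9942549) lies in an intron of the noncoding gene Snhg6. Snora5c overlaps an exon of Tbrg4, and Matr3 and Snhg4 were listed as hosts of Snora74a although the annotation places transcripts of other names there. For Snord104 no annotated gene on its strand held the whole snoRNA, and its listed host, Snhg25, was not in the count table.

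In vehicle RNA, Snora81, which in human cells guides pseudouridylation of the large-subunit ribosomal RNA, was the most abundant of the 10 per length. Its level was 988.8 ± 387.1 CPM per kilobase (SD, n = 5), and that of Snord104, a guide of large-subunit methylation, was 838.0 ± 310.1 (SD, n = 5). Snora28 followed at 512.4 ± 187.2 CPM per kilobase (SD, n = 5), and the others ran down from 406.1 for Snord12 to 147.6 for Snora5c. In that order Snord2, Snora74a, Snord87, Snord32a and Snora31 stood between these last 2. The ranges of every pair of neighbours overlapped, so the order of neighbours lies within the spread between libraries. Snora81 held between 24.9% and 42.4% of all member counts in each RNA library.

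The levels of all 10 in RNA were higher on average in leucine than in vehicle muscle, and none passed the test. Snora74a, known in human cells as a guide of large-subunit pseudouridylation, stood at 39.6, 82.6, 61.9, 37.7 and 66.3 CPM in vehicle libraries A1, A2, A3, B1 and B2. In leucine libraries its lowest, median and highest RNA levels were 63.2, 112 and 163 CPM. The groups overlapped, since vehicle A2 and B2 lay above the lowest leucine library, B1. The difference was 0.93 ± 0.29 on the log2 scale, leucine minus vehicle (SE, 5 against 6 libraries, edgeR quasi-likelihood adjusted p = 0.999, unadjusted p = 0.00724).

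Snora28, which in human cells guides pseudouridylation of the small-subunit ribosomal RNA, stood at 40.1, 78.3, 43.3, 56.0 and 92.4 CPM in the same vehicle libraries. In leucine its RNA levels were 66.2 at lowest, 106 at the median and 183 at highest. Again the groups overlapped, with vehicle B2 above 3 of the 6 leucine libraries, and the difference was 0.88 ± 0.32 (log2, SE, adjusted p = 0.999). Snora81 stood at 99.1, 211, 104, 155 and 242 CPM in vehicle and at 147, 223 and 429 (lowest, median and highest) in leucine. Its RNA difference was 0.63 ± 0.32 (log2, SE), with vehicle A2, B1 and B2 above the lowest leucine library. Snord12, a guide of large-subunit methylation, stood at 21.7, 37.7, 41.4, 12.8 and 20.5 CPM in vehicle and at 22.6, 47.5 and 63.9 in leucine. Here the 3 leucine libraries of set A lay above every vehicle library and those of set B did not, and the difference was 0.81 ± 0.34 (log2, SE).

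**Figure D1:**
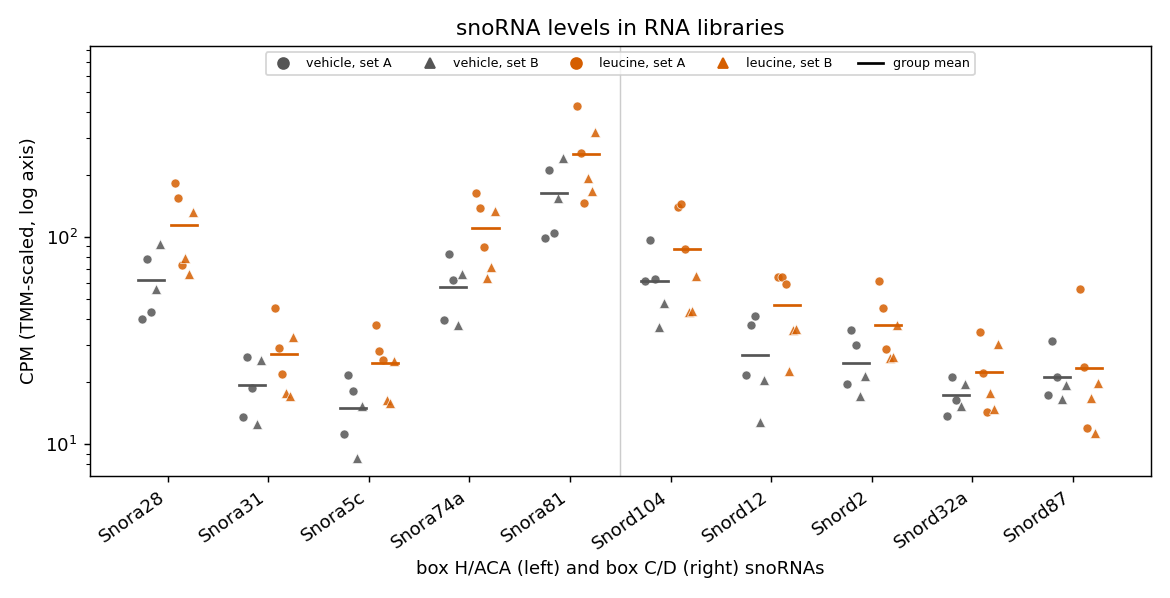
RNA level of each snoRNA in CPM (log axis), with 1 point per library, grey for vehicle (n = 5) and orange for leucine (n = 6), circles for set A and triangles for set B, and a bar at the group mean. The leucine mean is the higher one for all 10 snoRNAs, and the 2 groups overlap for each of them.

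The other RNA differences ran from 0.73 ± 0.27 for Snora5c, 0.60 ± 0.26 for Snord2, 0.51 ± 0.36 for Snord104 and 0.51 ± 0.29 for Snora31 to 0.37 ± 0.24 for Snord32a and 0.13 ± 0.39 for Snord87 (log2, SE). Over the 10 members the median RNA difference was 0.62, against -0.00 over all genes, and 5 of 10 reached an unadjusted p under 0.05, against 163 genes (2.69%) of the table. After adjustment edgeR called 0 of 10 members and 0 genes of the table (0%), as did DESeq2 and limma-voom. The box H/ACA members had a median of 0.73 and the box C/D members a median of 0.51. No member had all leucine libraries above all vehicle libraries, which held for 0.132% of genes.

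Leucine A1 held the highest RNA value of all 11 libraries for 9 of the 10 members, and vehicle B1 the lowest for 6. Summed over members, RNA levels were 337 to 643 CPM in vehicle and 469 to 1213 CPM in leucine, the top value being that of leucine A1. Without leucine A1, 9 of 10 differences were positive and their median was 0.42. Within set A all 10 were positive with a median of 0.80, and within set B 9 were positive with a median of 0.29.

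Over the 85 other genes with a noncoding identifier the median RNA difference was 0.02, with 48 of 85 positive. Over the 56 other genes under 500 bases it was 0.00, with 28 of 56 positive. Some other noncoding RNAs stood nearer to the snoRNAs, and none of those named here passed the test: 0.64 ± 0.26 for Rnu12 (an RNA of the minor spliceosome), 0.50 ± 0.28 for Rmrp (the RNA of RNase MRP), 0.48 ± 0.23 for Gas5 (a longer snoRNA host transcript) and 0.34 ± 0.26 for Rpph1 (the RNA of RNase P). Log2 CPM of each gene was correlated with the log2 of the summed member level over the 11 RNA libraries. Outside the members, the genes closest to that sum were Rnu12 (Pearson's r 0.945), Egfr (0.929), Gas5 (0.913), Rmrp (0.903) and Itm2a (0.877). Within the sum, r ran from 0.68 for Snord87, 0.70 for Snord12 and 0.76 for Snord104 to 0.97 for Snora31. Some members thus followed the sum less closely than these genes. These are descriptions over libraries that share depth and set, with a median r of 0.00 over all genes.

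The authors' deposited RNA table, made from the same libraries and so no independent evidence, lists many more snoRNAs than the count table. As read here it lists 74 snoRNAs among 10000 genes, and 64 of these snoRNAs are not in the count table. The authors' FDR values are larger than 10000 tested genes would give for their p-values. More genes were therefore tested than were read, and the counts, medians and shares below cover these 10000 genes only. The header does not name the group in the numerator, but its log2 fold change is positive for the 10 members, as is leucine minus vehicle here. In the authors' deposited table the log2 fold change was positive for 60 of these 64 and negative for Snord34, Snord43, Snord71 and Snord96a, with a median of 0.66 against 0.01 over all listed genes. The 26 box H/ACA snoRNAs outside the count table had a median of 0.85 and the 38 box C/D snoRNAs a median of 0.46 in the authors' deposited table. At the authors' unadjusted p under 0.05 stood 34 of the 64 (53.1%), against 2.41% of all listed genes. Of the 10 members, 7 stood under 0.05 by the authors' p and 5 by the p found here. The authors' p-values were the smaller ones for the members, so the authors' shares and calls cannot be set beside those of the fits here. At their FDR under 0.05 the authors' deposited table holds 2 genes (0.0200%), and both are snoRNAs: Snord22, with a log2 fold change of 1.16 and an FDR of 0.00590, and Snord82, with 1.16 and 0.0117. In the authors' deposited table all 6 listed Scarna genes, the related guides of Cajal bodies, were positive with a median of 0.48, while 3 of 10 listed microRNA genes were positive with a median of -0.34.

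**Figure D2:**
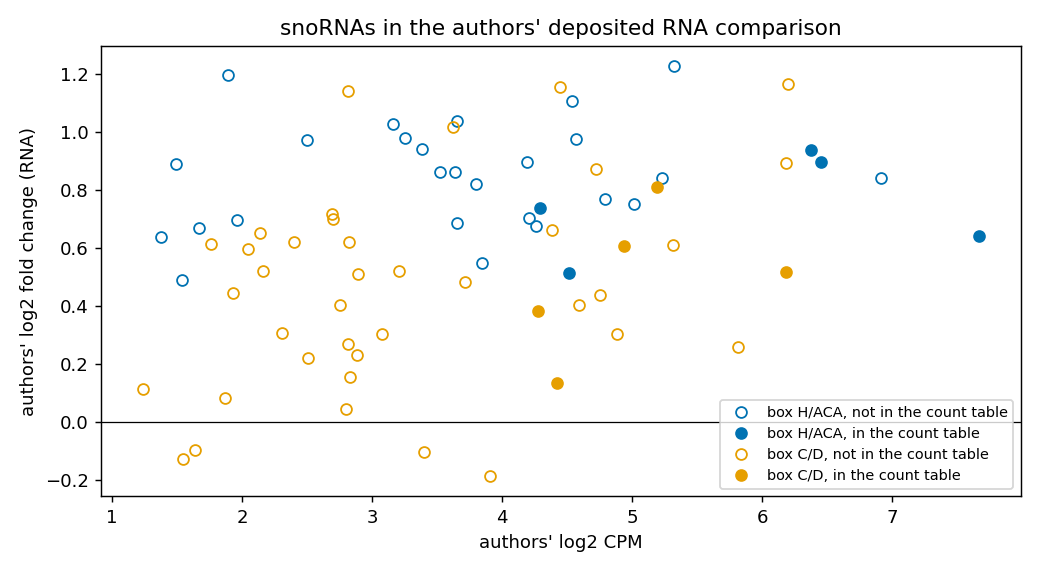
Log2 fold change of each of the 74 snoRNAs read from the authors' deposited RNA comparison against the authors' log2 CPM. Points are blue for box H/ACA and orange for box C/D, and filled for the 10 snoRNAs of the count table. Of the 64 open points 60 lie above 0, and the 10 filled points all do.

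In RPF libraries the 10 snoRNAs had lower average levels in leucine than in vehicle muscle, and again none passed the test. Snora74a stood at 6.13, 38.9, 23.5, 35.8 and 12.3 CPM in RPF vehicle libraries A1, A2, A3, B1 and B2, and at 5.79, 10.2 and 17.1 CPM (lowest, median and highest) in leucine. Vehicle A1 and B2 lay within the leucine range and vehicle A2, A3 and B1 above it. The RPF difference was -1.17 ± 0.45 (log2, SE, edgeR adjusted p = 0.310), the only one with an unadjusted p under 0.05, which 12.1% of genes reached. Snora81 stood at 12.5, 132, 45.2, 92.3 and 42.4 CPM in vehicle and at 19.1, 29.0 and 58.2 in leucine, a difference of -1.02 ± 0.51 (log2, SE). Vehicle A1 was the lowest of all 11 RPF libraries for Snora81 and vehicle A2 the highest.

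The remaining RPF differences were -1.34 ± 1.47 for Snora28, -0.96 ± 0.65 for Snord104, -0.72 ± 0.57 for Snora5c, -0.45 ± 0.99 for Snord12, -0.45 ± 0.95 for Snora31, -0.44 ± 1.14 for Snord2, -0.17 ± 0.62 for Snord32a and -0.13 ± 0.46 for Snord87 (log2, SE). In RPF edgeR called 0 of 10 members at an adjusted p under 0.05, against 46 genes of the table (0.760%, and 0 genes when any 1 of 9 of the 11 libraries was left out), and DESeq2 and limma-voom also called 0 members. The members' median was -0.58, against -0.01 over all genes. Without vehicle A2, which held the highest RPF value of 6 members, 5 differences were positive and 5 negative, with a median of 0.13. Within set A 9 of 10 were negative with a median of -0.36, and within set B, which does not hold vehicle A2, 8 were negative with a median of -0.90.

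**Figure D3:**
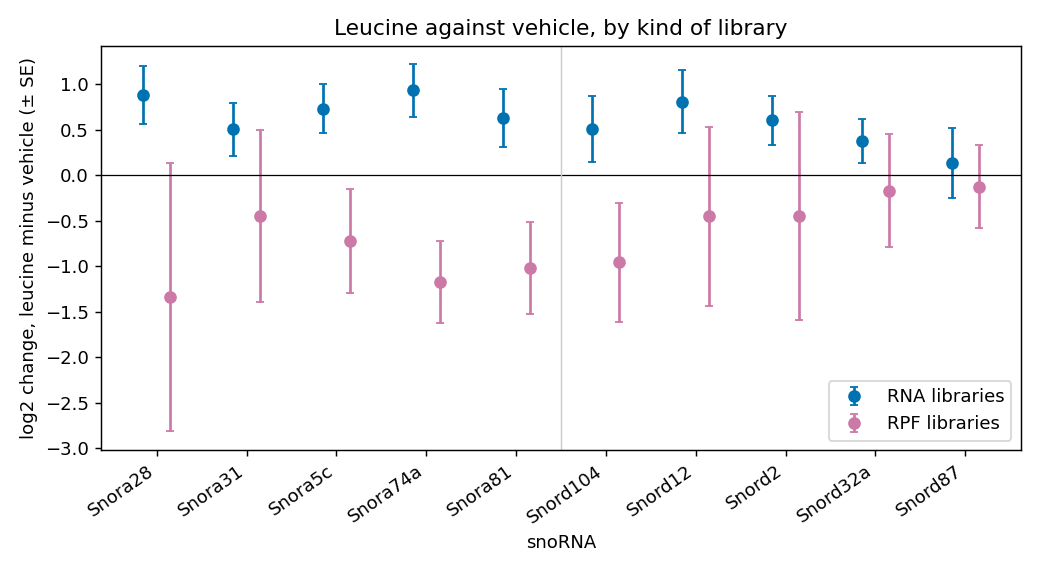
Leucine minus vehicle on the log2 scale for each snoRNA, with standard errors, blue for RNA libraries and pink for RPF libraries. All 10 RNA values lie above 0 (0.13 to 0.93) and all 10 RPF values below it (-1.34 to -0.13), with wider errors in RPF.

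Set against RNA in 1 model over the 22 libraries, RPF minus RNA was lower in leucine than in vehicle for all 10 members, with a median of -1.37 against -0.02 over all genes. EdgeR called 0 of 10 members and 0 genes of the table (0%) in this comparison. Snora74a had the smallest p, with a difference of -2.12 ± 0.55 (log2, SE, edgeR adjusted p = 0.204), and DESeq2 called it (adjusted p = 0.0183) as the 1 member among 57 genes, giving no adjusted p for 2 other members. Unadjusted p under 0.05 was reached by 3 of 10 members and 7.09% of genes, the others being Snora81 at -1.66 ± 0.61 and Snora5c at -1.46 ± 0.64. Without RPF vehicle A2 the median was -0.70, with 3 of 10 members positive. For Snora74a the value was -1.89 within set A and -2.51 within set B, and no single library left out turned its sign.

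The spread between libraries was large for every member. The biological coefficient of variation, fitted by edgeR with treatment alone in the design and so including the difference between sets, was 27.6% to 43.5% in RNA, against a median of 14.0% over all genes. In RPF it was 49.9% to 146%, against a median of 11.9%, and the highest of the whole table was that of Snora28.

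The RPF levels of 5 members differed between the 2 sets of libraries with treatment in the model. Snora28, the member with the widest spread, stood at 285, 1933 and 349 CPM in vehicle libraries A1, A2 and A3, and at 25.7 and 19.4 CPM in vehicle B1 and B2. In leucine it stood at 194, 432 and 592 CPM in A1, A2 and A3, and at 8.79, 7.35 and 5.42 CPM in B1, B2 and B3. Every library of set A thus lay above every library of set B under either treatment. The mean was 630.9 ± 652 CPM in set A (SD, n = 6) and 13.3 ± 8.80 CPM in set B (SD, n = 5). The set difference, B minus A with treatment in the model, was -5.55 ± 0.66 (log2, SE, edgeR adjusted p = 7.35e-04), the lowest value of the 6054 genes.

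In all, edgeR called 5 of 10 members lower in set B in RPF and 0 higher, against 12.2% of genes lower and 11.7% higher (23.8% in either direction). With upper-quartile scaling the genes of the table divided into 605 lower and 927 higher, with 5 members called lower. Snord12 stood between 57.9 and 145 CPM in set A, and between 5.93 and 8.12 CPM in set B, a difference of -3.56 ± 0.29 (log2, SE, edgeR adjusted p = 7.79e-05). Its mean was 83.4 ± 33.5 CPM in set A (SD, n = 6) and 7.02 ± 0.953 CPM in set B (SD, n = 5). Snord2, from the Eif4a2 transcript, stood between 42.2 and 256 CPM in set A and between 5.70 and 11.8 CPM in set B, a difference of -3.78 ± 0.64 (log2, SE, edgeR adjusted p = 0.00408).

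Snord32a, which in human cells guides methylation in the small and the large subunit, stood between 38.4 and 151 CPM in set A and between 22.0 and 30.9 CPM in set B (-1.55 ± 0.46, log2, SE, edgeR adjusted p = 0.0375). Snora31 stood between 28.1 and 247 CPM in set A and between 11.2 and 42.4 CPM in set B (-2.56 ± 0.69, log2, SE, edgeR adjusted p = 0.0262), with vehicle B1 inside the range of set A. All libraries of set A lay above all of set B for Snora28, Snord12, Snord2 and Snord32a, which held for 6.39% of genes. The calls of Snora31 and Snord32a each depended on single libraries. Without RPF vehicle A2, vehicle B2, leucine B1, leucine B2 or leucine B3 in turn, 3 members were called. Snord32a alone lost its call without vehicle B1 (adjusted p = 0.0777) or leucine A3 (0.0719).

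The other 5 members did not pass: -1.10 ± 0.51 for Snora5c, -0.89 ± 0.65 for Snord104, -0.40 ± 0.48 for Snora74a, -0.32 ± 0.50 for Snord87 and -0.11 ± 0.55 for Snora81 (RPF set difference, log2, SE). Snora81 and Snord2 come from the same host transcript, and of the pair only Snord2 was called. The difference between them was not tested. Among the sequences above, TGATGA and CTGA are both present in Snord12, Snord32a and Snord87, and the last of these was not called. By the authors' lengths the 5 called members had 66 to 121 bases and the other 5 had 73 to 198 bases.

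**Figure D4:**
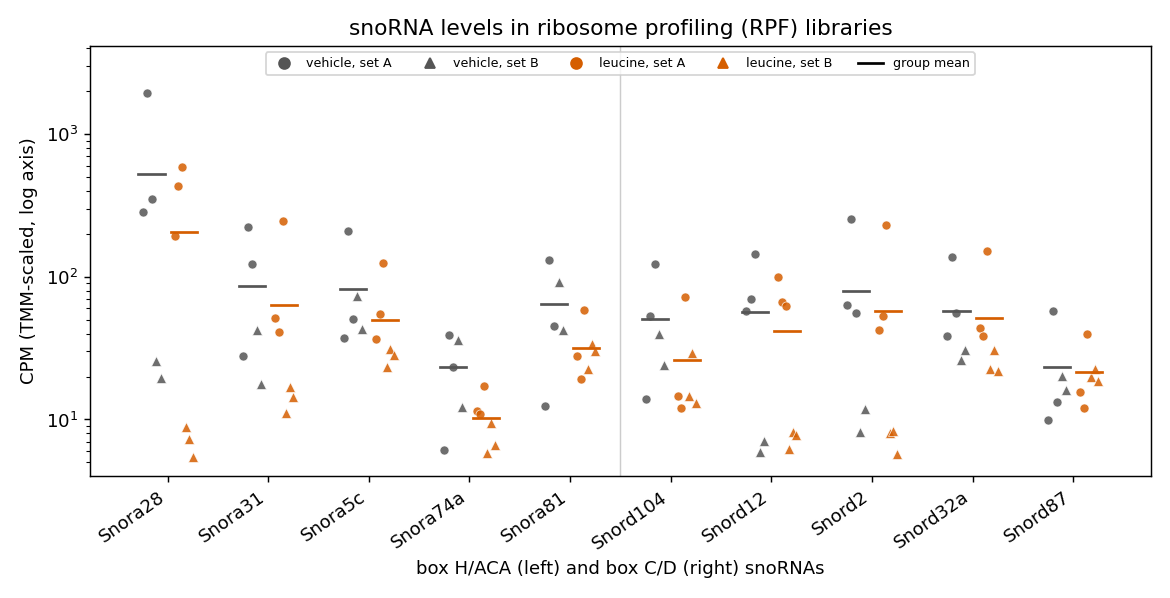
RPF level of each snoRNA in CPM (log axis), with 1 point per library, grey for vehicle (n = 5) and orange for leucine (n = 6), circles for set A and triangles for set B, and a bar at the group mean. Circles lie above all triangles for Snora28, Snord12, Snord2 and Snord32a, and mix with them for Snora74a, Snora81, Snord104 and Snord87.

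In RNA edgeR called 2 of 10 members lower in set B and 0 higher, against 9.80% of genes lower and 9.02% higher. With upper-quartile scaling that division of the table was 423 lower and 673 higher. Snord104 stood at 98.8 ± 36.3 CPM in set A (SD, n = 6) and 47.3 ± 10.6 CPM in set B (SD, n = 5), an RNA difference of -1.07 ± 0.20 (log2, SE, edgeR adjusted p = 0.0111). Snord12 stood at 47.9 ± 17.2 CPM in set A and 25.5 ± 10.1 CPM in set B, a difference of -0.999 ± 0.193 (log2, SE, edgeR adjusted p = 0.0118). Snora28 stood at 95.3 ± 59.3 and 85.2 ± 29.7 CPM in RNA, a set difference of -0.10 ± 0.32 (log2, SE).

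The test of the difference itself, whether RPF minus RNA differs between the sets, was added after the data had been seen. In it edgeR called 3 of 10 members, against 5.93% of genes. These were Snora28 at -5.45 ± 0.67 (log2, SE, edgeR adjusted p = 2.69e-04), Snord2 at -3.20 ± 0.61 (adjusted p = 0.00684) and Snord12 at -2.56 ± 0.33 (adjusted p = 3.82e-04). Snora31 at -2.27 ± 0.71 (adjusted p = 0.0642) and Snord32a at -1.47 ± 0.51 (adjusted p = 0.0911) did not pass. Of the other noncoding RNAs named above, Gas5 was lower in set B in RPF (-2.01 ± 0.48, log2, SE, edgeR adjusted p = 0.0171) and stood at -1.48 ± 0.49 (adjusted p = 0.0769) in the test against RNA, while the small RNAs Rmrp, Rnu12 and Rpph1 stood between -0.75 and -0.19 there and did not pass. What the sets are is not given in the sources used here, so the cause of the difference was not tested.

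The make-up of the snoRNA reads differed with it. Snora28 held between 35.5% and 62.2% of member counts in the RPF libraries of set A, between 3.56% and 8.66% in those of set B, and between 10.4% and 17.05% in RNA libraries. Summed over members, RPF levels were 536 to 3109 CPM in set A and 143 to 369 CPM in set B. In set A the 2 highest sums were 3109 CPM in vehicle A2 and 1595 CPM in leucine A3.

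The level of the snoRNAs in RPF relative to RNA was also compared within each treatment. Pooled over sets, edgeR called 4 of 10 members higher in RPF than in RNA in vehicle, against 38.2% of genes, and 2 lower, against 37.0%. The share near that background is no result about the members, and the values are given as a description. Higher were Snora28 at 3.28 ± 1.19, Snora5c at 2.68 ± 0.50, Snora31 at 2.38 ± 0.77 and Snord32a at 1.96 ± 0.51, and lower were Snora81 at -1.12 ± 0.45 and Snora74a at -1.10 ± 0.40 (RPF minus RNA, log2, SE). Snora28 lost its call without vehicle A2 (1.67, edgeR adjusted p = 0.159). Snora81 lost its call when any of RNA vehicle A2 or B2 or RPF vehicle A1, A3 or B2 was left out. In leucine 2 of 10 were higher, against 40.0% of genes, namely Snord32a at 1.41 ± 0.45 and Snora5c at 1.22 ± 0.43. Lower in leucine were 3 of 10, against 38.7% of genes, namely Snora74a at -3.22 ± 0.40, Snora81 at -2.78 ± 0.44 and Snord104 at -1.54 ± 0.52 (log2, SE). Without RPF leucine A3, 3 members in all were called in leucine, Snora5c and Snord32a having dropped out.

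Within set A, RPF minus RNA in vehicle was called higher for 6 members and lower for 0, against 34.9% and 34.6% of genes. Within set B it was called higher for 2 members and lower for 4, against 34.8% and 37.4% of genes. Whether these counts differ from the shares over all genes was not tested, and they are given as a description. For Snora28 it was 4.20 ± 0.79 in set A (log2, SE, edgeR adjusted p = 6.27e-04) and -1.56 ± 0.39 in set B (adjusted p = 0.00634), so the sign turned. It turned as well for Snord12, with 1.65 ± 0.35 and -1.21 ± 0.29, and for Snord2, with 2.34 ± 0.75 and -0.79 ± 0.25. Snora5c kept its sign, at 2.75 ± 0.67 in set A and 2.43 ± 0.37 in set B, as did Snora74a, at -1.22 ± 0.53 and -0.96 ± 0.58, but the call of Snora74a was lost in both sets (edgeR adjusted p = 0.0604 and 0.172). In leucine, Snora74a stood at -3.11 ± 0.57 in set A and -3.47 ± 0.53 in set B, and Snora81 at -2.79 ± 0.78 and -2.83 ± 0.39, each past the threshold in both sets.

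**Figure D5:**
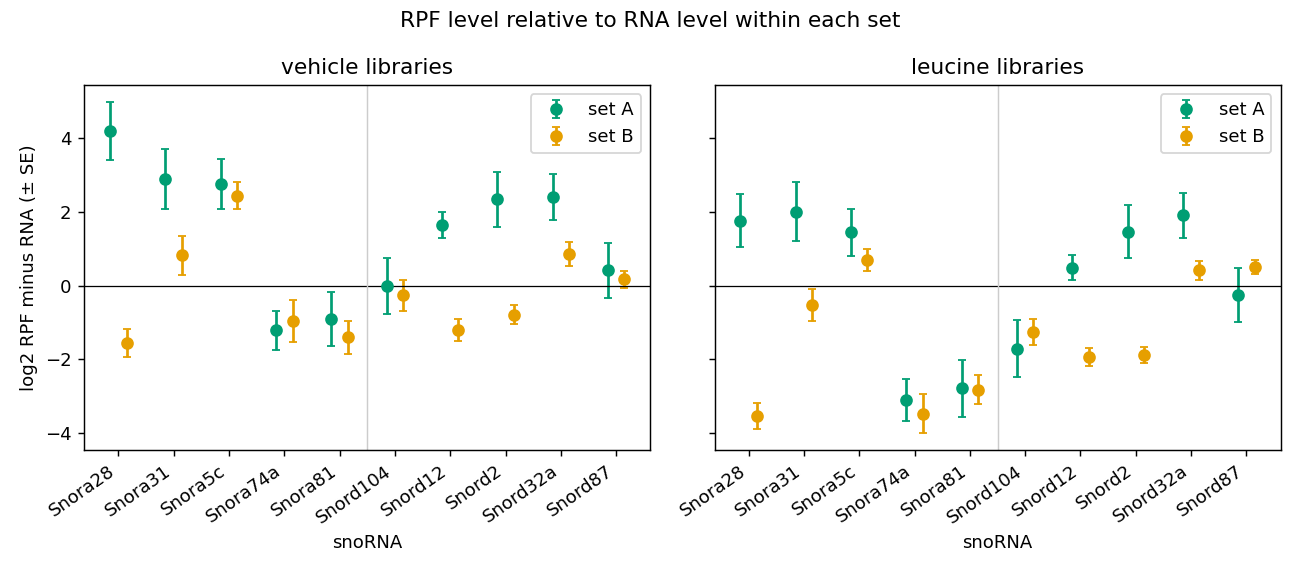
RPF minus RNA on the log2 scale, with standard errors, fitted separately within set A (green) and set B (orange), for vehicle libraries on the left and leucine libraries on the right. Snora28 stands at 4.20 in set A and -1.56 in set B in vehicle, whereas Snora74a and Snora81 lie close together in the 2 sets.

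Leucine and set were also tested together. The leucine difference was not called as different between the sets for any member or for any gene in RNA (0%) or in RPF (0%) by edgeR. At an unadjusted p under 0.05 stood 110 genes in RNA (1.82%) and 176 in RPF (2.91%), with 0 members in either.

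The 6 listed hosts in the table were Eif5, Tpt1, Tbrg4, Matr3, Eif4a2 and Rpl13a, although the annotation does not place Matr3 over Snora74a. Their RNA differences between leucine and vehicle lay between -0.16 ± 0.12 for Tpt1 and 0.13 ± 0.10 for Eif5 (log2, SE), with 0 of 6 called. At an unadjusted p under 0.05 stood 0 of 6, against 2.69% of all genes, and DESeq2 and limma-voom called 0 genes in RNA. In RPF Tpt1 was called higher with leucine, at 0.83 ± 0.17 (log2, SE, edgeR adjusted p = 0.0482). That call was lost with upper-quartile scaling, with limma-voom, and on leaving out any 1 of 9 of the 11 RPF libraries (all but leucine A3 and B3), since each of these left 0 genes of the table called in RPF. Eif4a2, host of Snora81 and Snord2, stood at 0.68 ± 0.15 (adjusted p = 0.0501), and Rpl13a at 0.77 ± 0.22 (adjusted p = 0.148). Tbrg4 and Matr3 stood at 0.04 each and Eif5 at -0.11. In the same RPF libraries the snoRNAs of Tpt1, Eif4a2 and Rpl13a stood at -0.45 (Snora31), -1.02 (Snora81), -0.44 (Snord2) and -0.17 (Snord32a), none of them past the threshold. Without RPF vehicle A2, Snora31, Snord2 and Snord32a stood at 0.28, 0.73 and 0.45. Snora28 lay on the same side of 0 as its host Eif5, at -1.34 ± 1.47 (log2, SE), but it too turned without RPF vehicle A2, to 0.28.

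The proteins that build snoRNA complexes were measured for 13 of the listed genes. In the core of the box C/D complex, Nop56 and Nop58, which form its scaffold, stood at 0.15 ± 0.09 and 0.15 ± 0.15 in RNA, and Nhp2l1, the kink-turn binder, at 0.02 ± 0.11 (log2, SE). In the core of the box H/ACA complex, Dkc1, the pseudouridine synthase dyskerin, stood at 0.11 ± 0.10, and Nop10 at 0.05 ± 0.10. EdgeR called 0 of 13 in RNA, in RPF and in RPF minus RNA, against 0%, 0.760% and 0% of all genes. The medians of the 13 were 0.05, 0.10 and 0.03. Of the other members of the list, those with the smallest p were Nolc1 (0.16 ± 0.07) and Ruvbl2 (-0.15 ± 0.11) in RNA and Rpap3 (0.20 ± 0.08) and Exosc10 (0.17 ± 0.08) in RPF. At an unadjusted p under 0.05 stood 1 of 13 in each of the 3 comparisons, against 2.69%, 12.1% and 7.09% of all genes.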

How the data were processed

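RNA and ribosome profiling (RPF) libraries of mouse quadriceps were analysed from the authors' deposited table of raw counts, 1 line a gene. Per the labels' protocols, total RNA was depleted of ribosomal RNA and fragmented, RPF came from crude polysomes digested with RNase and spun through sucrose, and a small RNA kit was used to build both kinds of library. The tools were Bowtie and edgeR and the build mm9, per the submitters' processing notes, which name no version. The counting of reads with several matches, and whether it used strand, is not given in the sources used here. snoRNA families and exons that overlap snoRNAs could share reads, so the level of a single member is uncertain to that extent. The authors also deposited 1 table of edgeR results per assay, with transcript length, log2 fold change, log2 CPM, p-values and FDR per the file headers. These were used only for lengths and description. The authors' RPF table lists 9766 genes, none shorter than 292 bases, and 0 snoRNAs. The 10000 genes read from their RNA table, which is not all that were tested, have 45 bases or more.

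The model was edgeR's robust quasi-likelihood fit (edgeR 4.0.16, R 4.3.3) after TMM scaling, and filterByExpr removed 0 genes. P-values were adjusted by Benjamini-Hochberg over the 6054 genes, with a threshold of 0.05. The fits were tested on simulated data in which 200 genes, drawn at random from the table, had a true log2 change of 1. Of these, 92.5% were recovered for leucine in RNA, 97.5% in RPF and 88% in RPF minus RNA. The members spread more widely between libraries than most genes, so these shares do not tell how well a change in a member would be found. Leucine was compared with vehicle in each assay (5 against 6 libraries) and as the interaction of treatment and assay over 22 libraries. RPF was compared with RNA within each treatment, and the 2 sets of column prefixes were compared with treatment as covariate. CPM are counts scaled with the TMM-adjusted library size, so a change in total RNA or total RPF cannot be seen. Log2 changes carry standard errors. DESeq2 1.42.0, limma-voom (limma 3.58.1), other scalings, libraries left out and fits within sets were alternatives. All sample columns were used. They carry no replicate number, so libraries were not paired across assays.

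The members, the lists of host genes and of snoRNA complex proteins, the markers and the tests were chosen with earlier results of these data known. All members, all hosts in the table, every core protein in the table, and of the other listed proteins the 2 with the smallest p were named, as were other small structured RNAs and the 5 genes most correlated with the summed member level. Sequences and positions are from GENCODE M21 on GRCm38. All 10 symbols matched. No coordinate was carried between builds.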

Additional observations from a re-analysis of the deposited data

Results flagged for a closer look

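In 40 groups of 5 or 6 libraries, 1 for each member, assay and treatment, the highest or lowest library was compared with the nearest other one, and 12 stood apart by Dixon's criterion. For independent and normally distributed values, chance would give about 1 in 20 such groups. The CPM were not log-transformed and the members share the same libraries, so that rate does not hold here. The flags are given as a description. RPF vehicle A2 stood above the other 4 vehicle libraries for 5 members: Snora28 (1933 CPM), Snord2 (256 CPM), Snora5c (208 CPM), Snord32a (138 CPM) and Snord87 (57.4 CPM). RPF leucine A3 stood above the other 5 leucine libraries for 6 members: Snora31 (247 CPM), Snord2 (230.4 CPM), Snord32a (151 CPM), Snora5c (125 CPM), Snord104 (72.7 CPM) and Snora81 (58.2 CPM). The last was Snord87 in RNA leucine A1, at 55.9 CPM. These 3 libraries also held the highest summed snoRNA levels of their groups.

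In 3 members RPF minus RNA differed between the 2 sets of libraries by a test of the difference itself. Set B minus set A was -5.45 on the log2 scale for Snora28, -3.20 for Snord2 and -2.56 for Snord12.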

How the results depend on the processing

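No member was called for leucine against vehicle in RNA or in RPF under any of the 19 alternatives of each. Values with the same direction and side of the threshold numbered 187 of 190 in RNA, 180 of 190 in RPF, 303 of 310 for RPF minus RNA between treatments, 283 of 310 and 269 of 310 for RPF against RNA in vehicle and in leucine, and 145 of 160 and 143 of 160 for the set difference in RNA and RPF. No paired analysis was possible because the columns carry no replicate number, so the planned replicate block was not run.

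For leucine against vehicle, Snord87 turned to -0.065 in RNA, 0.088 in RPF and 0.13 in RPF minus RNA with limma-voom, and to -0.17, 0.17 and 0.34 within set B. In RPF Snord32a stood at 0.0053 within set A and Snord12 at 0.19 within set B. With DESeq2, 1 member was called in RPF minus RNA. For RPF against RNA in vehicle, Snora28 was -1.56, Snord12 -1.21 and Snord2 -0.79 within set B. In leucine, Snora28, Snord12 and Snord2 were -3.54, -1.94 and -1.88 within set B, -0.87, -0.66 and -0.32 with limma-voom, -0.34, -0.67 and -0.057 with set as covariate, and -0.86, -0.72 and -0.18 with set by assay as covariate, added after seeing the data. There Snord12 was -0.031 with upper-quartile scaling, Snord87 -0.26 within set A and Snora31 -0.53 within set B. The RPF set difference of Snora81 was 0.18 with limma-voom. DESeq2 called 4 members in the RNA set difference, among 1978 of the 6054 genes of the table. In vehicle, Snora28 also lost its call with limma-voom (1.56, adjusted p = 0.270) and with set as covariate (1.71, adjusted p = 0.191). The cause was not tested.

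Leaving out 1 library at a time, RNA values of Snord87 ran from -0.33 to 0.32. RPF values ran from -1.999 to 0.28 for Snora28, -1.67 to 0.28 for Snora31, -0.91 to 0.26 for Snord12, -1.73 to 0.73 for Snord2, -0.86 to 0.45 for Snord32a and -0.39 to 0.53 for Snord87. RPF minus RNA between treatments ran from -2.36 to 0.11 for Snord2, -1.25 to 0.060 for Snord32a and -0.54 to 0.39 for Snord87. RPF against RNA ran in vehicle from -0.72 to 0.16 for Snord104 and -0.30 to 0.53 for Snord87, and in leucine from -0.44 to 0.25 for Snord12, -0.49 to 1.07 for Snord2 and -0.20 to 0.54 for Snord87. The set difference ran in RNA from -0.35 to 0.090 for Snora28, -0.13 to 0.36 for Snora81 and -0.25 to 0.13 for Snord32a, and in RPF from -0.38 to 0.32 for Snora81 and -0.50 to 0.17 for Snord87. Members called ran from 3 to 6 for RPF against RNA in leucine, 3 to 5 for the RPF set difference and 2 to 3 for the RNA set difference.

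Over the whole table, genes called for leucine in RPF numbered 46 in edgeR, 253 in DESeq2, 0 in limma-voom, with upper-quartile scaling and within set A, and 1 within set B. They numbered 0 without any 1 of 9 RPF libraries, 98 without leucine A3 and 67 without leucine B3. For RPF minus RNA between treatments they numbered 0 and, in DESeq2, 57. For the set difference they numbered 1139 and, in DESeq2, 1978 in RNA, and 1442 and 2005 in RPF.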

Other observations

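In RPF, the genes whose log2 CPM followed the log2 of the summed snoRNA level most closely over 11 libraries were Hip1 (Pearson's r 0.967), Gas5 (0.960), Ahnak (0.958), Msi2 (0.955) and Mxra8 (0.940), against a median of -0.00 over all genes. Gas5 is a host transcript of snoRNAs, and the other 4 are protein-coding. Within the sum, r ran from 0.45 for Snord87 and 0.47 for Snora81 to 0.96 for Snora28, which gives much of the sum in set A. The libraries share set and depth, so these are descriptions only.

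Against RNA in vehicle, Rmrp and Rpph1, the RNAs of RNase MRP and RNase P, stood at -5.35 and -4.99 on the log2 scale. Both were called lower in RPF by edgeR, as were 37.0% of genes, and the lowest value of all 6054 genes was -5.35. That the 10 snoRNAs lay above these 2 is therefore no result about the snoRNAs. Pooled over sets they ran from -1.12 for Snora81 to 3.28 for Snora28, which stood at 4.20 within set A and -1.56 within set B.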
